A study of Mus musculus with 3 samples.

Results

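The nuclear-encoded genes of the respiratory chain were followed through 3 samples of cultured mouse CD8+ T cells. The members were all genes whose symbol names a subunit, a dedicated assembly factor or the electron carrier of complexes I to V (the Nduf, Sdh, Uqcr, Uqcc, Cox4 to Cox8, Cyc1, Cycs and Atp5 symbols). The deposited list held 17121 genes, of which 97 matched, and 94 of these reached 1 CPM (CPM being the read count scaled to a common library size) in at least 1 sample. They comprised 83 subunits, with cytochrome c counted among them, and 11 assembly factors. The other 3 were Ndufb4b, Cox4i2 and Ndufa4l2, which had at most 9 reads in any sample.

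Primary CD8+ T cells of wild-type mice, from spleen and lymph node, were kept in culture for 3 days, and each condition was represented by 1 sample. The young TCR sample came from mice aged 6 weeks and received antibodies to CD3 and CD28 (1 µg/ml), which trigger the T cell receptor (TCR) together with CD28 co-stimulation. Cells of the young TRM sample, likewise from mice aged 6 weeks, received the same antibodies together with IL-15 (20 ng/ml) and TGF-beta (5 ng/ml), the condition labelled TRM for tissue-resident memory. For the aged TRM sample all of these agents were given to cells of mice aged 18 months. The sources used here do not give the number of mice behind a sample. Each sample had 2 numbered columns of values, treated as repeat measurements of that sample. No difference was therefore tested against variation between mice or cultures. Totals were between 36021887 and 40385477 reads per sample. The CD8 and CD3 genes Cd8a, Cd8b1, Cd3e and Cd3g summed to 1820, 3189 and 2924 CPM in young TCR, young TRM and aged TRM. Markers of other cells summed to far less: B and plasma cell markers to 47.1, 17.1 and 23.7 CPM, NK cell markers to 2.47, 12.4 and 9.64 CPM, and myeloid markers to 16.6, 35.5 and 21.7 CPM.

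The respiratory chain sits in the inner mitochondrial membrane. Complexes I and II pass electrons from NADH and succinate to coenzyme Q, complex III passes them to cytochrome c, and complex IV passes them to oxygen, while complexes I, III and IV pump protons and complex V, the ATP synthase, uses the proton gradient to make ATP. T cells enlarge this machinery when they are activated, and memory T cells are known for their reliance on mitochondrial respiration. Part of complexes I, III, IV and V is encoded in mitochondrial DNA. Genes of that genome were not analysed here.

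Sequences are shown for a motif that was more frequent among the members than among all genes, and for Ndufa4, the member that fell, with its paralogue. Promoter windows from RefSeq (GRCm38.p6), 250 bases before to 50 bases after a gene's start, were found for 79 of the members. The palindromic motif of nuclear respiratory factor 1 (NRF1), a known activator of respiratory chain genes, occurred in 7 of these 79 genes (8.86%), against 249 of 13562 genes with a window (1.84%). The letters AAGATGGCG, a YY1 motif, occurred in 8 of the 79 (10.1%) against 2.72% of all genes, and the ETS letters CCGGAAG in 19 (24.1%) against 16.2%. Both strands were searched for each motif. The ETS and YY1 letters can share bases where one follows the other. A match is a description of letters, not a bound site. The STAT letters TTCNNNGAA (6.33% against 8.43%), the SMAD letters CAGACA (17.7% against 20.2%) and the hypoxia-inducible factor letters ACGTG (25.3% against 26.7%) were no more frequent among members than among all genes. The 7 NRF1 matches, with the motif in capitals and 10 bases on either side, were as follows.
Atp5g2 (chr15:102671070-102671099, minus strand): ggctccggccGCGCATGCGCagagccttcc
Atp5k (chr5:108434430-108434459, minus strand): tttcactgcgGCGCATGCGCctttctggct
Cox6a1 (chr5:115349101-115349130, minus strand): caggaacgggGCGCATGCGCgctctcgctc
Ndufa11 (chr17:56717692-56717721, plus strand): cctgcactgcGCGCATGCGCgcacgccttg
Ndufaf4 (chr4:24897960-24897989, plus strand): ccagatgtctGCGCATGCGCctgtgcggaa
Ndufaf5 (chr2:140170652-140170681, plus strand): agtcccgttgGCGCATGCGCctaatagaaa
Uqcrc1 (chr9:108936668-108936697, plus strand): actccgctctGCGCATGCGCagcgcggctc

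Ndufa4 and its paralogue AA467197 are shown by bases outside annotated exons, from 250 to 48 and from 132 to 38 bases before the RefSeq start. In GENCODE AA467197 starts earlier, at 122636986, so its stretch lies within that gene, between exons. The Ndufa4 stretch held none of the searched motifs. In the AA467197 stretch the capitals mark ACGTG, which is present on both strands with its copies overlapping.
Ndufa4 (chr6:11907498-11907700, minus strand): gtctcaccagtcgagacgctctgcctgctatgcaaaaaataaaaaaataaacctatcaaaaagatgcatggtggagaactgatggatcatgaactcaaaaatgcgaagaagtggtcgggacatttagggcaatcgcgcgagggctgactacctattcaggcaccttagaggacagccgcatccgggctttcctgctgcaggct
AA467197 (chr2:122637755-122637849, plus strand): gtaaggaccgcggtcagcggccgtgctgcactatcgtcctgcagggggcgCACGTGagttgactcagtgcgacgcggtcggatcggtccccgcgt

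Levels per transcript length, in the authors' deposited TPM (transcript abundance scaled for transcript length and depth), followed the complexes in the same order in all 3 samples. In young TCR the median subunit of complex V had 447 TPM (range 210 to 1454), of complex IV 396 (0.4 to 824), of complex III 209 (98.8 to 587), of complex II 192 (149 to 222) and of complex I 143 (20.3 to 275). In young TRM these medians were 408, 364, 195, 149 and 134 TPM, and in aged TRM 457, 413, 208, 172 and 143 TPM. Every complex thus had its lowest median in young TRM. Assembly factors, which build the complexes but are not part of them, lay lower, with medians of 37.0, 32.2 and 35.9 TPM. Atp5b, the catalytic beta subunit of the ATP synthase, had the highest level of all members in each sample, at 1454, 1195 and 1504 TPM. Together the members took up 1.09%, 0.924% and 1.02% of reads, or 10770, 9445 and 10150 CPM. The columns gave 10920 and 10600 CPM in young TCR, 9365 and 9510 in young TRM, and 9930 and 10370 in aged TRM. Young TRM was therefore lowest in both of its columns, while the columns of young TCR and aged TRM lay closer together. In such bulk samples fewer cells of a type and less RNA per cell cannot be told apart.

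The first comparison asked what IL-15 and TGF-beta added to receptor stimulation in young cells. Most members had slightly lower values in young TRM, and few stood out. Of 94 members 80 had a log2 ratio of CPM under 0, or 85.1%, against 48.2% of the 11777 genes tested. The median log2 ratio was -0.16 (a fold of 1.11 lower), against 0.01 for all genes tested. With column 1 of each sample alone it was -0.24 and with column 2 alone -0.12. A log2 ratio here holds a pseudocount of 1 CPM. The words rose and fell are kept for genes with a log2 ratio of 1 or more either way whose fold had a 95% interval (Clopper-Pearson, counting error only) that left out 1. By that rule 1 member rose, Cox6a2, and 1 fell, Ndufa4, against 4.11% of all genes that rose and 3.54% that fell. A lower threshold was used for small differences: at least 1.2-fold with that pseudocount, and both columns of one sample beyond both columns of the other. By it 21 members were lower (22.3%, against 21.8% of all genes) and 4 were higher (4.26%, against 22.9%). With scaling by read totals alone 38 were lower (40.4%, against 25.4% of all genes) and 4 higher (4.26%, against 19.4%). The share of higher members was thus below that of all genes under both scalings, whereas the share of lower members was near it under the first and above it under the second. Between columns of the same sample (column 2 over column 1) the median log2 ratio of members was -0.04, 0.02 and 0.06. Under 0 were 70, 41 and 25 of 94 members in young TCR, young TRM and aged TRM. Over all 11777 genes these counts were 5477, 6294 and 5924. Repeat columns of 1 sample thus also gave shares of members far from those of all genes. The summed B and plasma cell markers were also lowest in young TRM (5 of 6 tested fell) and NK markers were higher there (4 of 4 rose). Red cell and platelet markers summed to 9.84, 4.43 and 10.9 CPM in young TCR, young TRM and aged TRM (2 of 4 tested fell, Ppbp and Pf4, and Hbb-bt rose), with Hbb-bs at 0 in young TCR. The CD4 T cell markers summed to 28.6, 20.4 and 25.9 CPM (Zbtb7b fell, while Cd4 had 10.5 and 12.4 CPM). Of 3 tested myeloid markers Mpeg1 rose (4.22 to 28.7 CPM) and Itgax fell (8.63 to 3.55 CPM). The part of these cells in the shift was not tested.

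**Figure D1:**
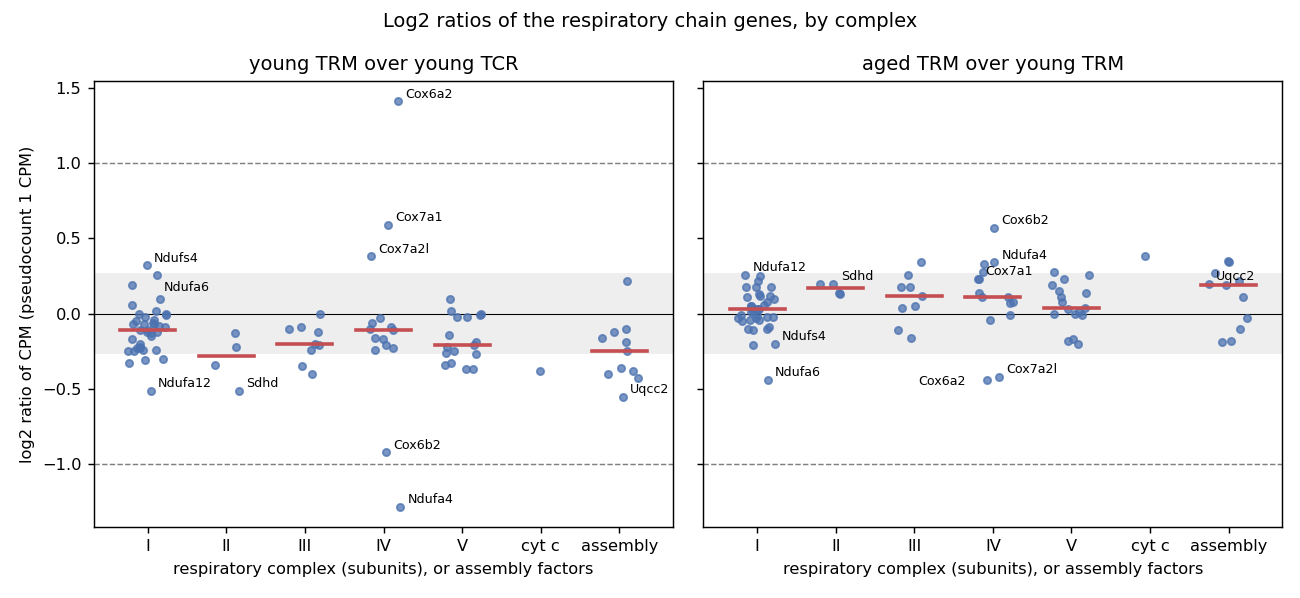
Log2 ratios of CPM (vertical axis) of the 94 members, grouped by complex or as assembly factors (horizontal axis), for young TRM over young TCR (left) and aged TRM over young TRM (right). Each point is 1 gene, red bars are medians, the grey band spans 1.2-fold either way and dashed lines mark 2-fold. On the left the medians of all groups lie under 0 and Ndufa4 lies lowest, at -1.28.

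**Figure D2:**
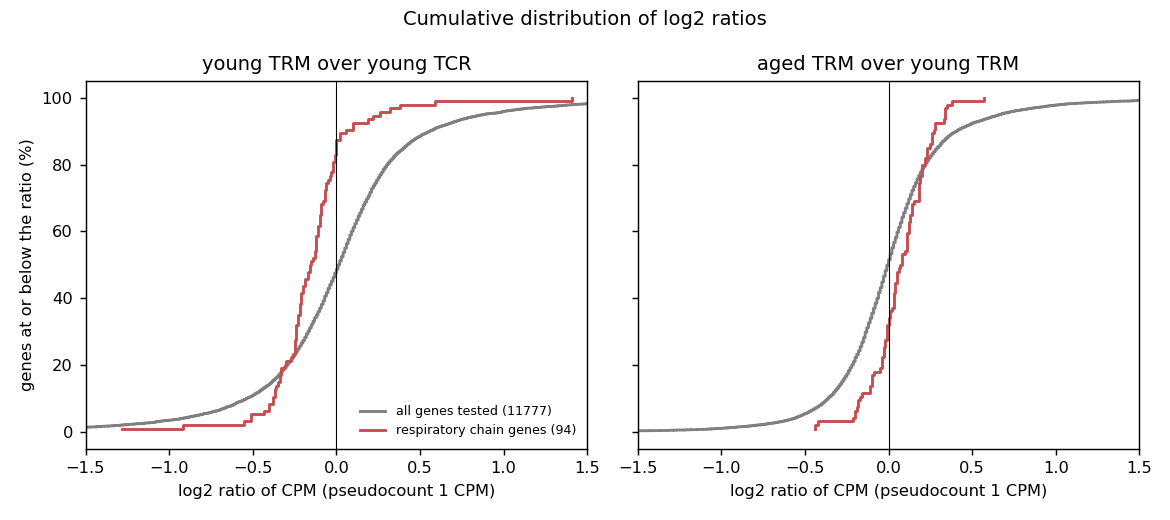
Share of genes (vertical axis, in percent) at or below each log2 ratio of CPM (horizontal axis, from -1.5 to 1.5) for all 11777 genes tested (grey) and the 94 members (red), in both comparisons. The members' curve is steeper than that of all genes and crosses 0 at 85.1% on the left and 33.0% on the right.

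Complex I, the NADH dehydrogenase, showed the smallest shift together with complex IV. Its 37 tested subunits had a median log2 ratio of -0.11, with 30 under 0 (81.1%, against 48.2% of all genes). All 7 catalytic core subunits were under 0, between -0.24 and -0.05, and none reached 1.2-fold. Among accessory subunits Ndufa12 was lowest, with column values of 56.8 and 52.1 CPM in young TCR and 38.3 and 37.7 CPM in young TRM (1.43-fold lower, 1.34 to 1.54). Ndufab1, the mitochondrial acyl carrier protein, Ndufc1 and Ndufs6 were also lower by the 1.2-fold rule, with log2 ratios of -0.31, -0.30 and -0.33. Against the trend, Ndufs4, an accessory subunit whose loss causes mitochondrial disease, was higher at 59.0 and 71.0 CPM against 53.3 and 51.3 CPM (1.26-fold, 1.18 to 1.33). Ndufa6 had 50.7 and 60.9 CPM (log2 ratio 0.26). Ndufb4 and the related copies Ndufb4b and Ndufb4c resemble each other, and the sources used here do not say how reads that fit several genes were divided, so their values are uncertain.

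Complex II, succinate dehydrogenase, which also belongs to the TCA cycle, had a median of -0.28. All of its 4 subunits were under 0 (against 48.2% of all genes). The lower values were in the membrane anchors. Sdhd had 122 and 119 CPM in the columns of young TCR and 80.9 and 86.9 CPM in those of young TRM (1.43-fold lower, 1.37 to 1.5), and Sdhc had 86.7 and 68.2 CPM (1.27-fold lower, 1.21 to 1.34). The flavoprotein Sdha had 281 and 241 CPM and the iron-sulphur subunit Sdhb 118 and 108 CPM, with log2 ratios of -0.22 and -0.13. The columns of the 2 samples did not overlap for any of the 4 subunits.

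Complex III had a median of -0.20, and all 9 subunits were at or under 0 (against 48.2% of all genes under 0). Uqcr11 was lowest, at 34.8 and 26.1 CPM (log2 ratio -0.40), and Uqcrc1, a core structural subunit whose promoter window holds an NRF1 match, had 162 and 127 CPM (-0.35). Uqcrc2, the complex III gene with the highest CPM, had 240 and 209 CPM (-0.20), and Uqcrh, the hinge subunit, had 150.3 and 150.1 CPM. The redox subunits Cyc1 and Uqcrfs1 had log2 ratios of -0.21 and -0.09. Cycs, which encodes cytochrome c, the soluble carrier between complexes III and IV and a trigger of apoptosis when released, had 268 and 294 CPM in young TCR and 220 and 211 CPM in young TRM (1.30-fold lower, 1.27 to 1.34).

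Complex IV, cytochrome c oxidase, held the widest spread, from -1.28 to 1.41, around a median of -0.11. Ndufa4, once counted with complex I and now known as a subunit of complex IV, fell. Its columns gave 107.7 and 107.9 CPM in young TCR and 43.6 and 43.9 CPM in young TRM (2.46-fold lower, 2.33 to 2.61, from 4371 and 1541 reads). The columns of each sample lay within 1 CPM of each other and far from those of the other sample. The other widely expressed subunits moved little. Cox4i1, the complex IV gene with the highest CPM, had 295 and 261 CPM (log2 ratio -0.17), Cox5a and Cox5b had log2 ratios of -0.10 and -0.09, Cox6b1 -0.16, Cox7a2 -0.06 and Cox8a -0.21. Cox6a1, whose window holds an NRF1 match, had -0.24.

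AA467197 (also called Nmes1), a paralogue of Ndufa4 and no member by symbol, moved the opposite way. Its product is known from other cells to take the place of Ndufa4 in complex IV during inflammatory activation. It rose from 12.3 and 11.8 CPM in the columns of young TCR to 237 and 232 CPM in young TRM (19.4-fold, 17.8 to 21.3), a log2 ratio of 4.17. Per transcript length the order of the pair was turned round: Ndufa4 had 467 TPM and AA467197 39.6 TPM in young TCR, against 188 and 766 TPM in young TRM. AA467197 thus made up 7.81% of their summed TPM in young TCR and 80.3% in young TRM. The sum itself went from 507 to 954 TPM. In GRCm38.p6 Ndufa4 (gene ID 17992) spans 11900372 to 11907450 of chromosome 6 on the minus strand, and no other gene overlaps it in the GENCODE annotation of that build. AA467197 (gene ID 433470) spans 122637887 to 122641076 of chromosome 2 on the plus strand in RefSeq. In GENCODE the microRNA gene Mir147 overlaps it on the same strand. The microRNA was not measured here.

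**Figure D3:**
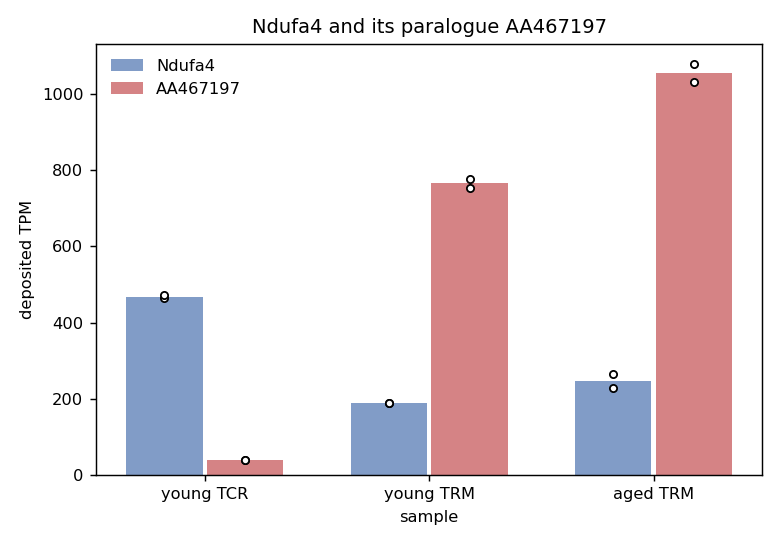
Deposited TPM (vertical axis) of Ndufa4 (blue) and AA467197 (red) in the 3 samples (horizontal axis). Bars are the mean of the 2 columns of a sample and open circles the columns, which are repeat measurements. Ndufa4 is the higher of the pair in young TCR (467 against 39.6 TPM), and AA467197 is the higher in young TRM (766 against 188 TPM) and aged TRM (1056 against 247 TPM).

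Cox7a2l, which encodes a factor that joins complexes III and IV into supercomplexes, was the only well expressed complex IV member (at least 10 CPM) that was higher in young TRM by the 1.2-fold rule. It had 181 and 170 CPM in the columns of young TCR and 231 and 228 CPM in those of young TRM (1.30-fold, 1.26 to 1.35). Its relative Cox7a2 had 125 and 120 CPM. Isoforms known from heart, muscle or testis stayed under 5 CPM throughout. Cox6a2, the heart and muscle form of Cox6a1, rose from 5 reads in young TCR to 70 in young TRM (0.123 and 1.99 CPM, 16.1-fold, 6.58 to 51.1). Its level per length in young TRM was 6.23 TPM, beside 357 TPM for Cox6a1. Cox6a2 overlaps Itgad on the opposite strand, and reads of the pair cannot be told apart without strand. Reads assigned to Itgad were 18, 6 and 9 in young TCR, young TRM and aged TRM, and this assignment has the same limit. Whether the reads of Cox6a2 came from the opposite strand was not tested. Cox7a1, the heart form of Cox7a2, had 29 and 56 reads (log2 ratio 0.59), and Cox6b2, the testis form of Cox6b1, had 156 and 55 reads (-0.92, and -1.18 with TPM, past 2-fold). Cox4i2, the form of Cox4i1 linked to low oxygen in lung, had 2 reads in each sample, and Ndufa4l2, a hypoxia-induced relative of Ndufa4, had 3, 0 and 1 reads. Counts of 3 or fewer lie at the limit of detection at this depth.

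Complex V, the ATP synthase, had a median of -0.21 over 17 subunits. By the 1.2-fold rule 5 were lower (29.4%, against 21.8% of all genes) and 0 higher (against 22.9%). The catalytic head carried the largest levels. Atp5b had 1389 and 1352 CPM in young TCR and 1143 and 1126 CPM in young TRM (1.21-fold lower, 1.19 to 1.23), and Atp5a1, the alpha subunit, had 906 and 721 CPM (log2 ratio -0.33). The other head subunits were close to their young TCR level, with -0.14 for Atp5c1, -0.01 for Atp5d and -0.02 for Atp5e. The 3 genes for the c-ring, the rotor, encode the same mature protein and differed among themselves. Atp5g1 and Atp5g3 both had a log2 ratio of -0.37 (80.9 and 62.3 CPM, and 282 and 217 CPM), whereas Atp5g2 had 162.9 and 163.2 CPM. Stalk subunits had a median of -0.20 and the small membrane subunits -0.21. In that last group Atp5k had 35.1 and 27.5 CPM, and Atp5mpl had 51.8 and 55.6 CPM, the highest ratio of complex V (0.10). Atp5g2 and Atp5k both hold an NRF1 match.

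The 11 assembly factors had a median of -0.25, with 10 under 0 (90.9%, against 48.2% of all genes). By the 1.2-fold rule 5 were lower (45.5%, against 21.8%) and 0 higher (against 22.9%). Uqcc2, needed for the synthesis of mitochondrial cytochrome b, was lowest, with 32.9 and 32.3 CPM in young TCR and 22.0 and 21.9 CPM in young TRM (1.48-fold lower, 1.36 to 1.62). The complex I factors Ndufaf1, Ndufaf2, Ndufaf4 and Ndufaf5 had log2 ratios of -0.38, -0.43, -0.40 and -0.36, from levels of 14.2 to 33.9 CPM in young TCR. Ndufaf3 had 9.10 and 10.8 CPM (0.22).

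**Figure D4:**
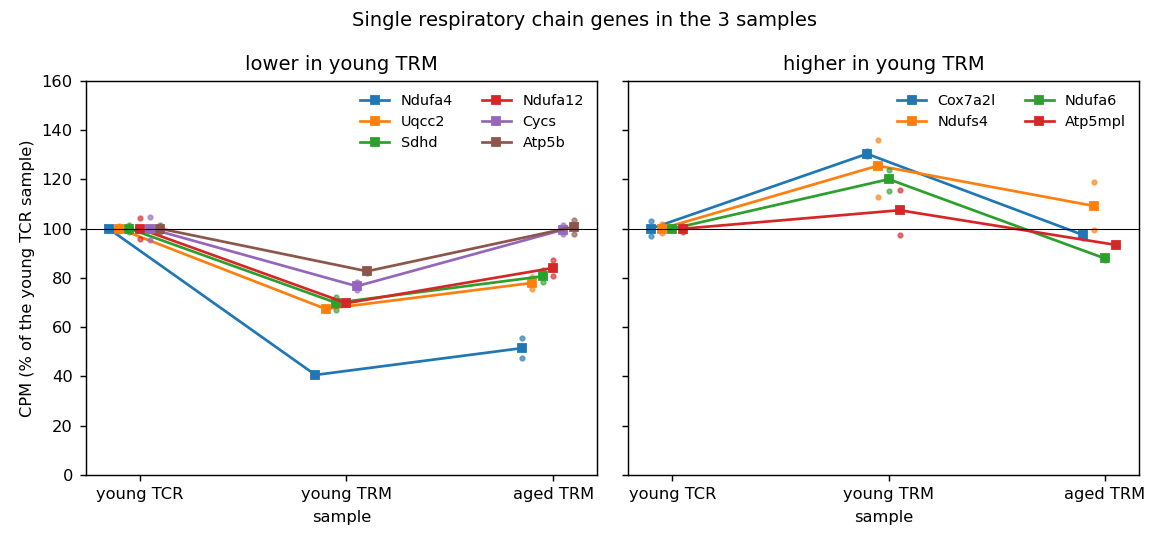
CPM as a percentage of the young TCR sample (vertical axis) in the 3 samples (horizontal axis) for 6 genes with lower values in young TRM (left) and 4 with higher values (right), chosen after their values were seen. Squares are samples and dots their columns. Ndufa4 stands at 40.6% in young TRM and 51.5% in aged TRM. In aged TRM Cycs and Atp5b stand at 99.6% and 100.7%. Cox7a2l stands at 130.4% in young TRM and 97.4% in aged TRM.

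The second comparison set the aged TRM sample against the young TRM sample. None of the 3 samples held aged cells in the TCR condition. The effect of IL-15 and TGF-beta in aged cells was therefore not measured. No member rose or fell, against 2.21% and 1.13% of all genes tested. The median log2 ratio was 0.07, against 0.00 for all genes, and 63 of 94 members were over 0 (67.0%, against 49.4%), leaving 31 under 0 (33.0%, against 50.6%). Those under 0 were 17 with TPM and 19 with scaling by read totals alone. By the 1.2-fold rule 11 members were higher (11.7%, against 16.5%) and 3 lower (3.19%, against 15.8%). The median of 0.07 was close to the median between the columns of aged TRM (0.06), while that between the columns of young TRM was 0.02. Between the columns of aged TRM 69 of 94 members were over 0 (against 5849 of 11777 genes), more than the 63 with age. Between those of young TRM 53 of 94 were over 0 (against 5473 genes). With column 1 or column 2 alone 28 of 94 members were under 0 (29.8%, against 50.8% and 51.1% of all genes). Whether the small shift exceeds the spread of repeat measurement was not tested. This comparison shares the young TRM sample with the first, so opposite directions of a gene in the 2 comparisons are not independent.

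Cytochrome c, complex II and the assembly factors had the highest values with age, at 0.38, 0.17 and 0.19, and complex I the lowest at 0.03, followed by complex V (0.04), complex IV (0.11) and complex III (0.12). Cycs had 275 and 285 CPM in the columns of aged TRM (1.30-fold higher than young TRM, 1.26 to 1.34), within the range of its young TCR columns. Atp5b had 1342 and 1420 CPM (1.22-fold, 1.2 to 1.23), also at the young TCR level. Among complex IV genes Cox6a1 and Cox5a were higher, at 117 and 124 CPM (1.26-fold, 1.21 to 1.32) and 146 and 152 CPM (1.22-fold, 1.17 to 1.27). Cox5a was then above both young TCR columns (132 and 131 CPM). Uqcrq, a small complex III subunit, had 86.2 and 90.5 CPM against 70.5 and 68.9 CPM in young TRM (1.27-fold, 1.21 to 1.34). Ndufa12 (1.21-fold, 1.12 to 1.29) and the assembly factors Ndufaf2, Ndufaf4 and Ndufaf5 (log2 ratios 0.35, 0.34 and 0.27) were higher as well. Cox6b2 had 55 and 114 reads (0.57).

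Ndufa4 was also low in aged TRM. Its aged columns gave 51.3 and 59.7 CPM, above the young TRM columns (1.27-fold, 1.19 to 1.36) but below those of young TCR, with a log2 ratio of -0.95 to young TCR. AA467197 was higher still in aged TRM, at 318 and 308 CPM (1.33-fold, 1.30 to 1.37), so both paralogues were higher than in young TRM and the share of AA467197 in their summed TPM was 81.1%. Cox7a2l had 169 and 173 CPM in aged TRM (1.34-fold lower than young TRM, 1.30 to 1.38), which overlaps its young TCR columns. Ndufa6 had 44.9 and 44.3 CPM (1.37-fold lower, 1.28 to 1.46), below both other samples. Cox6a2 had 49 reads (1.65-fold lower, 1.13 to 2.43). These 3 were the members lower with age by the 1.2-fold rule.

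Taking each member's order over the 3 samples, 60 of 94 (63.8%) had their lowest CPM in young TRM, against 34.1% of all genes tested. Young TCR was highest for 67 members (71.3%, against 36.6%), and 47 of 94 members had both (against 22.5% of all genes tested). Aged TRM was highest for 16 members (17.0%, against 26.9%). Aged TRM against young TCR, where age and cytokines both differ, had a median log2 ratio of -0.09. Of 94 members 73 were under 0 (77.7%, against 49.1%) and 21 over 0 (against 50.9%), none rose or fell (against 4.09% and 2.31%), and by the 1.2-fold rule 2 were higher and 9 lower (against 19.5% and 17.4%).

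Genes that work beside the respiratory chain were taken from lists chosen together with the members. All 21 TCA cycle and pyruvate entry genes were under 0 in the first comparison (against 48.2% of all genes), with a median of -0.21, and 9 of 21 were lower by the 1.2-fold rule (against 21.8%). Suclg1, a subunit of succinyl-CoA ligase, had 92.7 and 53.1 CPM (log2 ratio -0.79), Fh1, fumarase, had 88.9 and 59.8 CPM (-0.56), and Dlat, of pyruvate dehydrogenase, had 74.4 and 50.5 CPM (-0.55). With age their median was 0.19, with 6 of 21 higher (against 16.5%). The pyruvate carboxylase gene Pcx had the largest ratio with age (8.86 and 14.8 CPM, 0.68). Of 13 coenzyme Q genes 1 rose and 1 fell in the first comparison (against 4.11% and 3.54% of all genes). Coq8a, an atypical kinase of coenzyme Q synthesis, fell from 12.5 to 3.26 CPM (-1.66), and Coq10b, which binds coenzyme Q, rose from 11.3 to 27.7 CPM (1.22). The median was -0.23, and 0.20 with age.

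Assembly genes outside the member rule had medians slightly under 0 in the first comparison. The 24 tested complex IV assembly genes had a median of -0.09, with 18 under 0. The 18 for complexes I, II, III and V had -0.11, with 13 under 0 (against 48.2% of all genes). By the 1.2-fold rule 5 and 4 were lower (against 21.8%) and 0 of either list higher (against 22.9%). None rose or fell in the first comparison (against 4.11% and 3.54%) or the second (against 2.21% and 1.13%). Among these Lyrm7, a complex III factor, had 10.8, 6.61 and 4.82 CPM in young TCR, young TRM and aged TRM (-0.63 in the first comparison, and fallen in aged TRM against young TCR at -1.02), Tmem70, an ATP synthase factor, 53.3 and 36.2 CPM (-0.55), and Atpif1, the inhibitor of ATP synthase, 67.6 and 47.1 CPM (-0.51). Lrpprc, which stabilises mitochondrial mRNA, and Coa7 both had -0.45. With age the medians were 0.07 and -0.01.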

How the data were processed

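RNA was measured in 3 samples, 1 per group. The submitters' processing notes name Bowtie and the build GRCm38 (mm10). How reads were counted is not stated there. The authors deposited, per the file headers, estimated counts of reads per gene (not always whole) and TPM, in 2 columns per sample; 24 further columns were not used here. Of the 97 members, 91 had a value that was not whole in at least 1 column.

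Counts were rounded and the columns of a sample summed (TMM factors 1.02, 0.978 and 1.01, edgeR 4.0.16 in R 4.3.3). Ratios and intervals were computed in Python 3.11.15 with scipy 1.17.1, for the 11777 genes of at least 1 CPM in 1 sample. No p-value was computed, since each group had 1 sample. TPM, other scalings (DESeq2 1.42.0), pseudocounts, filters and single columns were alternatives.

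Named were Ndufa4, members past 2-fold, for each complex the members with the highest CPM and the highest and lowest ratio, tissue isoforms, assembly factors and list genes with the largest ratios, and members of the same subunit group for context. A gene that this rule selects is not reported here. Members, lists and motifs were chosen with earlier results of these data known, and Ndufab1, Ndufc1, Ndufs6, Atp5a1 and Atp5g3 among others were named after their values were seen. Of 94 members found in GENCODE, 40 overlap another gene.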

Additional observations from a re-analysis of the deposited data

How the results depend on the processing

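No paired analysis was possible because each group had 1 sample. The fall of Ndufa4 (log2 ratio -1.34 to -1.21) and the rise of AA467197 (3.81 to 4.27) held under all 9 alternatives. Those that changed only the filter could not alter the ratio of a single gene. The rise of Cox6a2 ended with a pseudocount of 5 (0.45), which left 0 risen members, as did genes of at least 10 CPM (0). With a pseudocount of 0.1 there were 2 risen members (Cox7a1 added, 1.05) and 2 fallen (Cox6b2 added, -1.25), and with TPM 2 fallen. Members lower by 1.2-fold in the first comparison were 38 with scaling by totals only, against 21, and the higher ones 2 with genes of at least 10 CPM. With age 18 members were higher by 1.2-fold with TPM, against 11, and members under 0 were 17 with TPM and 19 with totals only, against 31. The median of all members in the first comparison was -0.24 with column 1 alone and -0.12 with column 2 alone, where 67 of 94 were under 0, and that of complexes I and IV -0.18 and -0.24 with column 1 alone. With age the median of complex I was 0.07 with TPM and with totals only, and that of complex II 0.22 and 0.21.

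Summed CPM moved by more than the spread of the columns as follows. With column 1 alone young TCR gave 11080 for all members and 2364, 619, 1061, 1825 and 4683 for complexes I to V, and young TRM 9289 for all and 2068, 904, 1559 and 3835 for complexes I, III, IV and V. With totals only young TRM gave 9239 for all and 2067, 490, 901 and 3808 for complexes I, II, III and V, and young TCR 616 and 1055 for complexes II and III. Sums had no value for TPM or pseudocounts, and the 1.2-fold rule none for single columns. With 1 sample per group, variation between mice or cultures was not measured, whatever the depth.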

Other observations

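Regulators of mitochondrial biogenesis and of the oxygen response, chosen as lists together with the members, were measured in the same samples. Of 17 tested biogenesis genes 0 rose or fell in the first comparison (against 4.11% and 3.54% of all genes) or with age (against 2.21% and 1.13%). By the 1.2-fold rule 2 were higher and 3 lower in the first comparison (against 22.9% and 21.8%). With age 0 were higher and 2 lower (against 16.5% and 15.8%). The medians were -0.04 for young TRM against young TCR and 0.00 with age. Nrf1, the factor whose motif was searched in the promoters, had 64.7, 66.1 and 66.5 CPM in young TCR, young TRM and aged TRM. Tfam, which packages and transcribes mitochondrial DNA, had 90.5, 89.97 and 78.4 CPM, Ssbp1, its single-strand binding protein, 57.9, 42.3 and 37.6 CPM, and Ppargc1b, a coactivator of respiratory genes, 10.4, 12.8 and 10.3 CPM. Ppargc1a was near the limit of counting, at 0.0493 to 0.0738 CPM.

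Among 10 oxygen response genes 1 rose (Vegfa, 63.1 to 133 CPM) and 1 fell (Epas1, 105 to 1.31 CPM) in young TRM, against 4.11% and 3.54% of all genes, with a list median of -0.09. Hif1a had 458, 404 and 472 CPM. Pdk1, which restrains pyruvate entry into the TCA cycle, had 279, 234 and 173 CPM, a log2 ratio of -0.43 with age. Lonp1, a mitochondrial protease, had 251, 192 and 247 CPM. With age 1 gene rose, Epas1, to 6.45 CPM (against 2.21% of all genes), and the list median was 0.00.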
